A study of Mus musculus with 12 samples.

Results

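The genes described here are 9 genes of the thick filament of striated muscle. They are the myosin heavy chains Myh3, Myh8, Myh7 and Myh6, the light chains Myl1, Myl4, Mylpf and Myl7, and Mybph, which encodes a myosin binding protein and not a chain of myosin. The genes were chosen by name and found through the annotation of the array's probe sets; they are 9 of the 12393 genes with a probe set of their own. Together they had 11 probe sets of 1 gene each, and 2 more were shared by Myh7 and Myh6. A gene was tested if a probe set of its own lay above the median signal of the array on at least 2 of 12 arrays. Of the 9 genes 7 passed that filter, while Myh6 and Myl7 did not. A gene that is silent in some groups passes only through the groups in which it is high, so counts over the 7 tested genes stand as description.

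The samples were muscle progenitors of mouse embryos of the ICR strain, all carrying the alleles Myf5Cre and RosaYFP. Cells that have expressed Myf5 switch on the yellow fluorescent protein YFP for good, so a sort for fluorescence collects them with all their descendants, whether or not these still express Myf5 or form muscle. Sorted cells of the head and of the trunk were taken at 3 stages, embryonic day 9.5 (E9.5), 10.5 (E10.5) and 11.5 (E11.5). That gave 6 groups of 2 arrays and 12 arrays in all. No group lacked the Cre, and the labels do not say how many embryos went into a sample or whether the 2 samples of a group came from separate litters, so the spread that p-values rest on is that between these samples and may be technical. The comparisons asked how head and trunk progenitors differ at each stage and how each population changes with time.

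Myosin is the motor of the sarcomere. Each molecule pairs heavy chains, which bind actin and split ATP, with essential light chains, which stiffen the lever arm, and regulatory light chains, which tune it. Muscles of the embryo begin with developmental heavy chains (Myh3, the embryonic form, and Myh8, the perinatal form) and with the slow form Myh7, which the heart shares, before adult fast forms take over. Several chains counted as cardiac in the adult, such as Myl4, are also made by early skeletal muscle.

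The array's median signal was 108.6 to 110.4 intensity units (6.76 to 6.79 on the log2 scale) on the 12 arrays, and this median serves here as the line below which a probe set is called dim. The number of arrays limits the precision. Over all probe sets, which are no independent replicates, the 2 arrays of a group had a Pearson r between 0.948 and 0.965. The muscle determination gene Myf5 was above the median on all 12 arrays, at 525 to 2294. The myogenic factors Myod1 and Myog reached 2156 and 2337, and 1581 and 1318, in head at E11.5. Among other defining markers of the muscle lineage, Myf6 and Eya1 were dim on every array. A pair of arrays stood apart: Xist, the RNA of the inactive X chromosome, read 1681 to 6057 on 10 arrays, but at E10.5 it was 4 on replicate 1 of head and 18 on replicate 1 of trunk. Calls that use E10.5 and differences between head and trunk at E10.5 are therefore also given without these 2 arrays where that changes them, where each E10.5 group keeps 1 array that is assumed to vary like the other groups.

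The stretches of 250 bases before the start of transcription are shown for 5 of the genes, because 3 of them (Myl1, Mylpf and Mybph) had the highest correlations with one another over the arrays, Myh3 came next, and Myh7 took another course. They come from RefSeq on the build GRCm38.p6, which held all 9 genes, in 10 windows. Each is printed 5′ to 3′ on the strand of the gene, with capitals for matches to the E-box CANNTG, the letters that basic helix-loop-helix factors such as MyoD bind.
Myl1 (chr1:66945057-66945306, minus strand): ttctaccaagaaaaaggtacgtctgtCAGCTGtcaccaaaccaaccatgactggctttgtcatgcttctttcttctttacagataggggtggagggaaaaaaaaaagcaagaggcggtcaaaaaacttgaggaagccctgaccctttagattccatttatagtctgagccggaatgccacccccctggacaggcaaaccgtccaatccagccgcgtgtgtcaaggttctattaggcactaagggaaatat
Mylpf (chr7:127211358-127211607, plus strand): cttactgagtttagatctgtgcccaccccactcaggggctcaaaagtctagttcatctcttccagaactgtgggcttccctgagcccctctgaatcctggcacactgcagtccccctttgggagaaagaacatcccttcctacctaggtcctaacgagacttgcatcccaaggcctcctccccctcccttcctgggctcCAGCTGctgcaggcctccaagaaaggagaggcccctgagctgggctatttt
Mybph (chr1:134193198-134193447, plus strand): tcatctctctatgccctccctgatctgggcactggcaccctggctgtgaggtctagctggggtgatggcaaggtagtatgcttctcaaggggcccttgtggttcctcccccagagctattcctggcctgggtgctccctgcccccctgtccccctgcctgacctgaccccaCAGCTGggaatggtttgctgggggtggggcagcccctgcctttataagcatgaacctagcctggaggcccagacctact
Myh3 (chr11:67078050-67078299, plus strand): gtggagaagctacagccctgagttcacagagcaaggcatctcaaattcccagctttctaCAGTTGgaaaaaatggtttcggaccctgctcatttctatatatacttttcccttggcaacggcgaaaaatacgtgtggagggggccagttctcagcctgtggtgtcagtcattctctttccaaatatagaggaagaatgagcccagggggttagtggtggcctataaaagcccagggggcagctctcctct
Myh7 (chr14:54994627-54994876, minus strand): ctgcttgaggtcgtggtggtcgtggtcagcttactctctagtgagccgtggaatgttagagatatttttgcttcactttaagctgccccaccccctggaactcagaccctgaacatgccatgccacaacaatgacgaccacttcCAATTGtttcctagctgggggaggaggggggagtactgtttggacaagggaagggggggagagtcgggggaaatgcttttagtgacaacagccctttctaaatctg
The windows of Myl1 and Mylpf lie inside the span that RefSeq gives to the gene, ahead of an inner start. Those of Mybph and Myh3 reach into that span, which begins at 134193418 for Mybph and at 67078273 for Myh3. Distances before the start are thus counted from an inner start for these genes too.

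An E-box occurred in the windows of 8 of the 9 genes, Myl4 being the exception, and in 66.2% of all 32817 windows of this length. Its form CAGCTG, counted after the matches were seen and contained in the count of CANNTG, stood in the windows of Myl1, Mylpf and Mybph and in 13% of all windows. In Mybph it lay 79 to 74 bases before the start, in Mylpf 51 to 46 bases and in Myl1 224 to 219 bases. The E-box printed for Myh3 has a different centre and lay 191 to 186 bases before the start. That printed for Myh7 lay 106 to 101 bases before it. Myh7 had a second window, not shown, for another start, with 2 E-boxes. These were CAATTG at 183 to 178 bases and CAGGTG at 62 to 57 bases before that start. The letters TATAAA, on either strand, were found for Myl1, Mybph, Myh3 and Myh8 and in 12.4% of all windows. A match to the MEF2 consensus was found for Myh8 alone of the 9 genes (2.92% of all windows), overlapping its TATAAA, and a CArG box of SRF for Myl7 alone (1.47%). These are matches of letters and not binding sites, and both strands were searched.

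Myh3, the embryonic heavy chain, went from single digits on 3 of the 4 arrays of E9.5 to 1678 or more at E11.5 in both populations. Its probe set 1427115_at read 5 and 3 in head at E9.5, 159 and 238 at E10.5, and 2381 and 1678 at E11.5. In trunk it read 7 and 288 at E9.5, 2659 and 1937 at E10.5, and 4519 and 2317 at E11.5. Each trunk group lay above the head group of the same day at E9.5 and E10.5, while the arrays of E11.5 overlapped, and the 2 trunk arrays of E9.5 differed by −5.27 on the log2 scale (replicate 1 minus replicate 2). From E9.5 to E11.5 the signal rose in head by 8.87 ± 1.14 (log2 difference ± SE, limma, 2 arrays per group; adjusted p = 0.000972), at least 18.2-fold. In trunk it rose by 6.13 ± 1.14 over the same days (adjusted p = 0.00431), at least 18.3-fold. A fold is written "at least" where dim arrays were raised to their array's median for it; the log2 values were fitted without that floor and are not orders of measured folds.

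The daily steps of Myh3 differed in how firmly they were measured. In trunk the first day brought a rise of 5.61 ± 1.14 (adjusted p = 0.012), at least 12.8-fold, and from E10.5 to E11.5 the difference was 0.51 (adjusted p = 0.936). In head the first day gave 5.51 ± 1.14 (adjusted p = 0.0481), at least 1.77-fold, and the second 3.36 ± 1.14 (adjusted p = 0.179), 10.3-fold between arrays that did not overlap. The rise over the first day in head was lost in 10 of the 12 fits that left out 1 array (adjusted p 0.055 to 0.224), all but those without a trunk array of E9.5, and in trunk it was lost without replicate 1 (0.116) or replicate 2 (0.0628) of trunk at E10.5. Without both E10.5 arrays low in Xist the first-day values were 5.8 in head (adjusted p = 0.324) and 5.38 in trunk (0.174).

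Head lay below trunk in Myh3 by 2.56 ± 0.66 over the mean of the 3 stages (−2.56, adjusted p = 0.0267), at least 2.0-fold. This call ended without replicate 2 of head at E9.5, replicate 1 of head at E10.5, replicate 2 of head at E11.5, either trunk array of E10.5 or replicate 1 of trunk at E11.5 (adjusted p 0.059 to 0.0799). At single stages the difference did not pass: −3.44 at E9.5 (adjusted p = 0.119), −3.54 at E10.5 (0.0927), where every head array lay below every trunk array by 11.7-fold in the mean, and −0.69 at E11.5 (0.912). Without both arrays low in Xist the mean of the stages was −2.39 (adjusted p = 0.185) and the E10.5 difference −3.02 (0.69). Much hung on the 2 unlike trunk arrays of E9.5. Without replicate 1 of trunk at E9.5 the difference at that stage was −6.07 (adjusted p = 5.28e-05), and without either of them the difference at E10.5 passed (adjusted p 0.000544 and 0.000628), as did the second-day step in head (0.00276 and 0.00318).

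**Figure D1:**
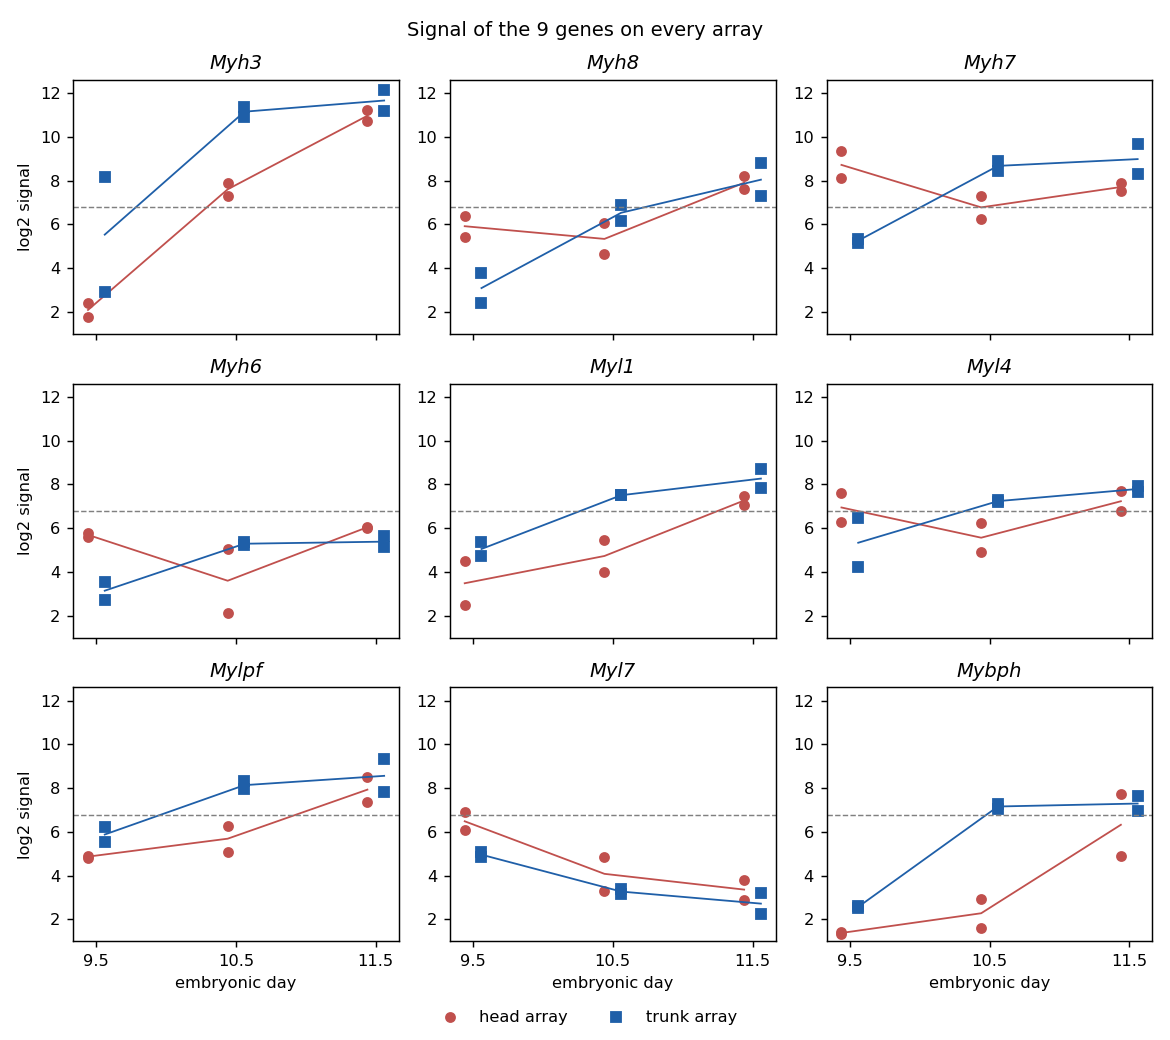
The plots show the log2 signal of each of the 9 genes (one panel each, vertical axis) on every array against embryonic day (horizontal axis); circles are head arrays, squares are trunk arrays, lines join the group means, and the dashed line marks the median signal of the arrays, which was 6.76 to 6.79. Myh3 climbs farthest, Myh7 starts high in head and low in trunk, and Myh6 never crosses the dashed line.

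Myh8, the perinatal heavy chain, was dim at E9.5 and E10.5 on all arrays but 1 and passed the median in both populations at E11.5. Its probe set 1426650_at read 85 and 43 in head at E9.5, 25 and 66 at E10.5, and 296 and 193 at E11.5. The trunk arrays read 14 and 5 at E9.5, 119 and 72 at E10.5, and 446 and 156 at E11.5. The groups of E11.5 overlapped, and the lowest group was trunk at E9.5. In trunk Myh8 rose by 4.95 ± 0.68 from E9.5 to E11.5 (adjusted p = 0.000643), at least 2.41-fold, and by 3.44 ± 0.68 over the first day (0.0108), where the dim arrays allow no bound above 1. The first-day call ended without replicate 2 of trunk at E9.5 (0.0583) or replicate 1 of trunk at E10.5 (0.129), and without both arrays low in Xist the value was 3.08 (0.128). In head the difference from E9.5 to E11.5 was 1.98 ± 0.68 (adjusted p = 0.136).

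At E9.5 Myh8 was higher in head than in trunk by 2.82 ± 0.68 (adjusted p = 0.0295), but all 4 arrays were dim, so no fold is given. This call ended without replicate 1 of head (adjusted p = 0.191), replicate 2 of head (0.057) or replicate 2 of trunk (0.194) at E9.5, and with signals raised to the array median the difference was 0.01 (0.996). At E10.5 the difference between head and trunk was −1.2 (adjusted p = 0.306), or −0.12 (0.979) without both arrays low in Xist, and at E11.5 it was −0.14 (0.975).

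Myh7, the slow heavy chain of skeletal muscle and of the heart, took the course least like that of Myh3. The probe set 1448553_at read 646 and 274 in head at E9.5, 159 and 76 at E10.5, and 241 and 182 at E11.5. The trunk arrays read 36 and 41 at E9.5, 479 and 351 at E10.5, and 816 and 314 at E11.5. Head was thus highest at the stage at which trunk was lowest, and the order of the group means ran from trunk at E11.5 (8.98 on the log2 scale), head at E9.5 (8.72) and trunk at E10.5 (8.68), whose arrays overlapped, down through head at E11.5 (7.71) and head at E10.5 (6.78) to trunk at E9.5 (5.26), each clear of the next. At E9.5 Myh7 was higher in head by 3.46 ± 0.50 (adjusted p = 0.0015), at least 3.85-fold.

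In trunk Myh7 rose by 3.42 ± 0.50 over the first day (adjusted p = 0.00192), at least 3.75-fold, and by 3.73 ± 0.50 from E9.5 to E11.5 (adjusted p = 0.000523), at least 4.63-fold. These values and the difference at E9.5 passed the threshold under each of the 24 alternative settings tried, the fit without both arrays low in Xist among them (adjusted p = 0.0445 for the first day). In head the signal differed by −1.93 ± 0.50 over the first day (adjusted p = 0.0959), by 0.93 over the second (0.371) and by −1.01 from E9.5 to E11.5 (0.326), so that no change in head passed the test, although the arrays of E9.5 and E10.5 did not overlap. The first-day value in head passed without replicate 2 of head at E9.5 (−2.55, adjusted p = 0.049) and was −2.46 (0.272) without both arrays low in Xist. At E10.5 head lay at −1.9 ± 0.5 relative to trunk (adjusted p = 0.0525), and this value passed when either array of head at E9.5 or of trunk at E11.5 was left out (adjusted p 0.035 to 0.0416). It was −2.2 (adjusted p = 0.406) without both arrays low in Xist. At E11.5 the difference was −1.27 ± 0.5 (adjusted p = 0.315), 2.42-fold between arrays that did not overlap.

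The difference between the populations in their first-day change of Myh7 was tested itself. The change in head minus that in trunk was −5.36 ± 0.70 on the log2 scale (adjusted p = 0.00645). Over both days the difference in change was −4.73 ± 0.70 (adjusted p = 0.00558). Of the 7 tested genes Myh7 was the one called in either test, lower in head in each, against 0.389% of all 7721 tested genes called for the first day (0.337% lower in head) and 1.48% for both days (1.2% lower and 0.272% higher). The first-day call ended without replicate 1 of trunk at E10.5 (−5.13, adjusted p = 0.0576) and without both arrays low in Xist (−5.66, 0.154), and the value for both days passed in all 24 alternatives. With signals raised to the array median the first-day call of Myh7 was lost as well. For Myh8 the first-day difference was −4.02 ± 0.96 (adjusted p = 0.139) and for Myl4 −3.28 ± 0.97 (0.222).

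Myh6, the fast heavy chain of the heart, was dim on all 12 arrays by both of its probe sets. Probe set 1448826_at read 56 and 48 in head at E9.5, 34 and 4 at E10.5, and 65 and 67 at E11.5. Trunk gave 7 and 12, then 38 and 41, then 50 and 35. The other probe set, 1417729_at, stayed between 3 and 13. In a fit of every probe set without a filter, head lay above trunk in 1448826_at at E9.5 by 2.55 ± 0.77 (adjusted p = 0.15), which did not pass.

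The 2 probe sets that Myh7 and Myh6 share cannot be assigned to one gene. Probe set 1448554_s_at read 152 and 74 in head at E9.5, 11 and 5 at E10.5, and 86 and 85 at E11.5. In trunk it read 18 and 13, then 128 and 104, then 231 and 105. The order of the groups was close to that of the probe set of Myh7 alone: head high and trunk low at E9.5, the reverse at E10.5. It was above the median on 3 arrays, and the other shared probe set, 1448827_s_at, was dim on all 12.

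Cells of the heart were looked for through 14 marker genes, because Myh7 and Myh6 are also cardiac. Of these 14 markers 10 were dim on all 12 arrays, among them the natriuretic peptides Nppa and Nppb, the transcription factors Gata4, Tbx5, Tbx20 and Hand2, cardiac troponin I (Tnni3) and the ventricular light chain Myl2. The summed signal of the 14 was 502 to 590 in head at E9.5 and 511 to 716 in trunk at E9.5, ranges that overlap. No array of E9.5 had more than 1 of the 14 above the median. These sums therefore cannot show whether heart cells were present. Outside the 14, limma called the heart and muscle genes Myocd and Mef2c higher in head at E9.5 (adjusted p = 0.022 and 0.0485). Tnnt2 (−0.23, adjusted p = 0.902) and Actc1 (0.17, 0.91), also made in the heart, were not called. Myl7 read 119 and 67 in head against 33 and 29 in trunk. At E10.5 the sums of the 14 markers were 604 to 691 in head against 472 to 553 in trunk. At E11.5 they were 765 to 912 against 606 to 729, so head was higher on all arrays of both stages. That excess rested on 1 of the 14, the cardiac and pharyngeal factor Nkx2-5. It read 248 and 113 in head against 23 and 56 in trunk at E10.5, and 267 and 260 against 68 and 51 at E11.5. Without Nkx2-5 the sums of the 2 regions would overlap at both stages. At E9.5 Nkx2-5 read 120 and 77 in head against 29 and 48 in trunk (log2 difference 1.37, adjusted p = 0.185). It was called higher in head at E10.5 (2.22 ± 0.52, adjusted p = 0.0353). The part of these markers in the values of Myh7 was not tested.

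Myl1, the essential light chain of fast skeletal muscle, was dim in all groups but trunk at E10.5 and both populations at E11.5. Its probe set 1452651_a_at read 6 and 22 in head at E9.5, 16 and 44 at E10.5, and 179 and 132 at E11.5. The trunk arrays gave 26 and 42 at E9.5, 181 and 182 at E10.5, and 418 and 227 at E11.5. The order of the means was trunk at E11.5, trunk at E10.5 and head at E11.5, with no overlap between them, and then the dim groups. Over both days Myl1 rose by 3.78 ± 0.67 in head (adjusted p = 0.0074), at least 1.4-fold, and by 3.22 ± 0.67 in trunk (adjusted p = 0.00839), at least 2.82-fold. The value in head was lost without replicate 1 of head at E11.5 (adjusted p = 0.0543), and the value in trunk without replicate 1 of trunk at E9.5 (0.0703) or at E11.5 (0.0805).

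Head lay below trunk in Myl1 at E10.5 by 2.78 ± 0.67 (−2.78, adjusted p = 0.0397), at least 1.65-fold, and over the mean of the 3 stages by 1.78 ± 0.39 (−1.78, adjusted p = 0.0114), the latter with no bound above 1 on its fold. The E10.5 call ended without replicate 1 of head at E10.5 (adjusted p = 0.269), replicate 1 of head at E11.5 (0.0501), either trunk array of E10.5 (0.204 and 0.2) or replicate 1 of trunk at E11.5 (0.052). Without both arrays low in Xist it was −2.06 (adjusted p = 0.583), and the mean of the stages −1.54 (0.0882). The first-day rise in trunk, 2.45 ± 0.67 (adjusted p = 0.0481), at least 1.66-fold, was lost without any 1 of the 6 trunk arrays or of the 2 head arrays of E11.5 (adjusted p 0.061 to 0.295). In head the second-day difference was 2.54 (adjusted p = 0.094), and it passed without replicate 1 of head at E9.5 (0.0457). The first-day value in trunk was 2.46 (adjusted p = 0.224) without both arrays low in Xist.

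Myl4, the essential light chain of the embryo and of the adult atrium, kept a narrower range and shared with Myh7 its signal in head at E9.5. Probe set 1422580_at read 192 and 79 in head at E9.5, 30 and 75 at E10.5, and 206 and 110 at E11.5. The trunk arrays read 19 and 88 at E9.5, 154 and 148 at E10.5, and 246 and 200 at E11.5. One head array of E9.5 was above the median and no trunk array was. The one rise of Myl4 that passed was in trunk from E9.5 to E11.5, by 2.46 ± 0.69 (adjusted p = 0.0339), at least 2.03-fold, and it was lost without replicate 1 of trunk at E9.5 (1.33, adjusted p = 0.291) or any of the other trunk arrays of E10.5 and E11.5 (0.0535 to 0.152), and without both arrays low in Xist (0.0551). In head the difference over the same days was 0.29 ± 0.69 (adjusted p = 0.882).

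Between head and trunk Myl4 differed by 1.61 ± 0.69 at E9.5 (adjusted p = 0.258), at least 1.13-fold and with overlapping arrays, and by −1.67 ± 0.69 at E10.5 (adjusted p = 0.168), or −0.98 (0.832) without both arrays low in Xist. Without replicate 2 of trunk at E9.5 the difference at E9.5 passed (2.73, adjusted p = 0.0381), as did the first-day rise in trunk (3.03, 0.0195) and the difference in first-day change (−4.41, 0.0365). The second probe set of the gene, 1457126_at, was dim on all 12 arrays (8 to 56) and did not follow the first.

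Mylpf, the regulatory light chain of fast skeletal muscle, ran close to Myl1. Its probe set 1448371_at read 30 and 28 in head at E9.5, 34 and 78 at E10.5, and 362 and 165 at E11.5. Trunk gave 47 and 74 at E9.5, 247 and 319 at E10.5, and 637 and 225 at E11.5. Trunk at both later stages and head at E11.5 overlapped at the top, and every array of the other groups was dim. Over both days Mylpf rose by 3.07 ± 0.55 in head (adjusted p = 0.00755), at least 2.22-fold, and by 2.68 ± 0.55 in trunk (0.00744), at least 3.46-fold. The value in head was lost without replicate 1 of head at E11.5 (0.0648), and the value in trunk without replicate 1 of trunk at E9.5 (0.0695) or E11.5 (0.0799).

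At E10.5 Mylpf was lower in head by 2.44 ± 0.55 (−2.44, adjusted p = 0.032), at least 2.56-fold, and over the mean of the 3 stages by 1.36 ± 0.32 (−1.36, adjusted p = 0.0163), at least 1.28-fold. Over the first day it rose in trunk by 2.25 ± 0.55 (adjusted p = 0.0297), at least 2.57-fold. The E10.5 difference was lost without replicate 1 of head (adjusted p = 0.236) or either trunk array of that stage (0.154 and 0.195), and the mean of the stages without replicate 2 of trunk at E10.5 (0.0589). The first-day rise was lost without replicate 1 of trunk at E9.5 (0.227) or either trunk array of E10.5 (0.142 and 0.168). Without both arrays low in Xist these values were −2.04 (adjusted p = 0.493), −1.23 (0.0949) and 2.44 (0.138). The second-day difference in head, 2.24 (adjusted p = 0.0781), passed without replicate 2 of head at E10.5 (0.0481).

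Myl7, the regulatory light chain of the atrium and of the early heart tube, was above the median on 1 array and was not tested. Its probe set 1449071_at read 119 and 67 in head at E9.5, 10 and 29 at E10.5, and 8 and 14 at E11.5. In trunk it read 33 and 29, then 10 and 9, then 9 and 5. Head at E9.5 was the highest group and lay clear of the next, trunk at E9.5. In the fit of every probe set without a filter, the signal in head fell by 3.12 ± 0.66 from E9.5 to E11.5 (adjusted p = 0.0328), from 1 array above the median to none, and over the first day it differed by −2.4 (adjusted p = 0.187). Head differed from trunk at E9.5 by 1.53 (adjusted p = 0.389).

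Mybph, myosin binding protein H, a protein of the thick filament's crossbridge zone, read under 10 on 6 arrays and above 100 on 5. Its probe set 1419487_at read 3 and 3 in head at E9.5, 8 and 3 at E10.5, and 212 and 30 at E11.5. In trunk it read 6 and 6 at E9.5, 131 and 155 at E10.5, and 197 and 126 at E11.5. Trunk was above the median on all 4 arrays of the later stages, head on 1 of its 6 arrays. At E10.5 Mybph was lower in head by 4.87 ± 1.07 (−4.87, adjusted p = 0.0306), at least 1.3-fold, the smallness of the bound coming from the trunk signal lying just above the median. It was lower over the mean of the 3 stages by 2.34 ± 0.62 (−2.34, adjusted p = 0.0311), with no bound above 1 on its fold.

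In trunk Mybph rose by 4.58 ± 1.07 over the first day (adjusted p = 0.0255), at least 1.31-fold, and by 4.72 ± 1.07 from E9.5 to E11.5 (0.0129), at least 1.44-fold. In head the rise was 4.93 ± 1.07 from E9.5 to E11.5 (adjusted p = 0.0201), without a bound above 1, and the second-day difference was 4.04 (0.0942). Single arrays ended each of these calls. The E10.5 difference was lost without any array of either E10.5 group or of trunk at E11.5 (adjusted p 0.0525 to 0.206), the first-day rise without any of the 6 trunk arrays (0.0518 to 0.201), and the rise in trunk to E11.5 without replicate 1 of trunk at E9.5 or either trunk array of E11.5 (0.0539 to 0.121). The rise in head was lost without replicate 1 of head at E9.5 or E11.5, either trunk array of E10.5 or replicate 1 of trunk at E11.5 (0.0523 to 0.237), and the mean of the stages without replicate 2 of head at E11.5 or any trunk array of E10.5 or E11.5 (0.0746 to 0.134). Without both arrays low in Xist the E10.5 difference was −5.66 (adjusted p = 0.333), the first-day rise in trunk 4.7 (0.185), the rise in head 4.93 (0.0522) and the mean of the stages −2.61 (0.0999).

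At E9.5 the slow heavy chain Myh7 was higher in head, and so was Myh8 within its dim range, while the signals of Myh3, Myl1, Mylpf and Mybph lay higher in trunk without passing the test. Of the 7 tested genes 2 were higher in head and 0 lower, where 5.92% of all 7721 tested genes were called (4.68% higher and 1.24% lower in head). The median difference of the 7 genes was −1.01, against −0.01 for all tested genes. The arrays did not overlap for 6 of the 7, against 43.8% of all genes. For 4 of these 6 (Myh8, Myl1, Mylpf and Mybph) all arrays of both regions were dim, and the median is the value of one of them, so neither figure measures the size of a difference. The count fell to 1 without either head array of E9.5.

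At E10.5 the fast light chains Myl1 and Mylpf and the binding protein Mybph were lower in head. These were 3 of the 7 genes, none was higher, and 4.52% of all genes were called (2.07% lower in head). The median over the 7 was −2.44, against −0.01 over all genes, and the arrays of the 2 regions were apart for all 7 tested genes, as they were for 58.4% of all genes. The count was 0 without replicate 1 of head, replicate 1 of trunk or replicate 2 of trunk at E10.5, and 0 without both arrays low in Xist.

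At E11.5 no tested gene of the 7 was called by limma, where 2.07% of all genes were. All 7 differences were below 0, from −0.14 (Myh8) to −1.27 (Myh7), with a median of −0.69 against 0.02 for all genes. At an unadjusted p under 0.05 Myh7 alone passed. The arrays were apart for Myh7 and Myl1, 2 of 7, against 40.4% of all genes. Over the mean of the 3 stages Myh3, Myl1, Mylpf and Mybph, 4 of the 7, were lower in head and none was higher, where 10.5% of all genes were called (3.61% lower and 6.85% higher), with a median of −1.36 against 0 for all genes. That count was 1 without replicate 2 of trunk at E10.5, 2 without replicate 2 of head at E11.5 or replicate 1 of trunk at E10.5 or E11.5, and 0 without both arrays low in Xist. The differences of Myh8 (0.5, adjusted p = 0.483), Myh7 (0.1, 0.871) and Myl4 (−0.21, 0.787) averaged over stages of opposite sign.

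**Figure D2:**
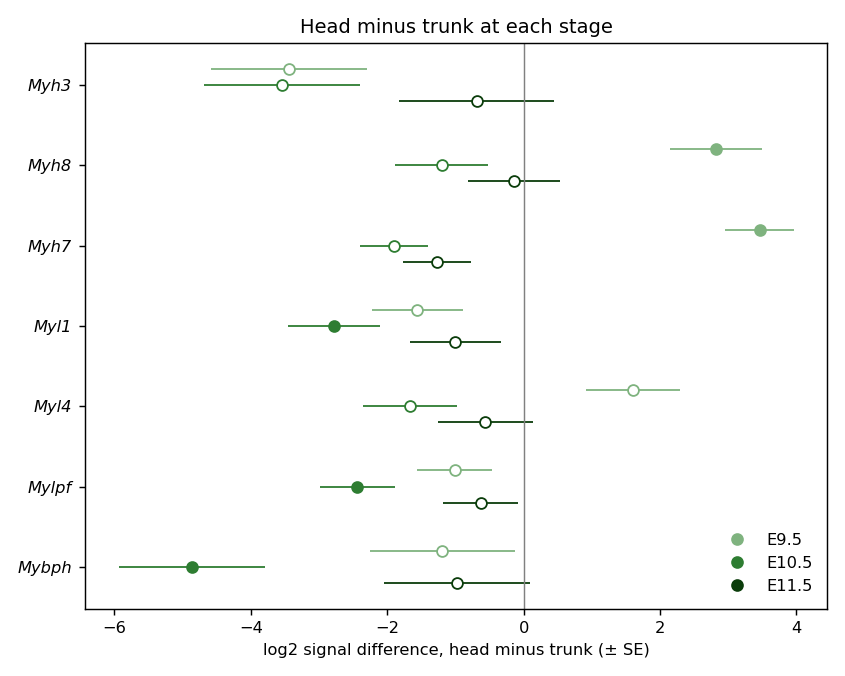
The plot gives the difference in log2 signal between head and trunk (horizontal axis, head minus trunk) for each of the 7 tested genes at the 3 stages, from light to dark; points are limma estimates, bars are their SE, and filled points passed the adjusted threshold of 0.05. Myh7 and Myh8 are filled to the right of 0 at E9.5, and Myl1, Mylpf and Mybph are filled to the left at E10.5.

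In trunk the calls fell on the first day and not on the second. From E9.5 to E10.5 Myh3, Myh8, Myh7, Myl1, Mylpf and Mybph rose in trunk, 6 of the 7 tested genes, where 7.2% of all genes were called (5.47% higher). Myl4 did not pass (1.9 ± 0.69, adjusted p = 0.125). The median change was 3.42, against 0 over all genes, and the arrays of the 2 days were apart for all 7 tested genes, against 57.6% of all genes. The number called was 1 without replicate 1 and 2 without replicate 2 of trunk at E10.5, 3 without replicate 1 of trunk at E9.5, and 1, Myh7, without both arrays low in Xist. From E10.5 to E11.5 limma called none of the 7 in trunk, against 0.0259% of all genes, with changes from 0.14 (Mybph) to 1.51 (Myh8) and, at an unadjusted p under 0.05, Myh8 alone. Over both days all 7 tested genes rose in trunk, where 13.4% of all genes were called (8.73% higher), and the count was 3 without replicate 1 of trunk at E9.5 or at E11.5.

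In head the first day showed a rise of Myh3 alone of the 7, where 0.958% of all genes were called. The median change of the 7 was 0.83, against −0.01 for all genes, and Myh8, Myh7 and Myl4 had values below 0. That median is the value of Mylpf, which was dim at both stages, as were Myh8, Myl1 and Mybph. Over the second day none of the 7 passed in head, against 0.984% of all genes (0.531% higher and 0.453% lower), although the median change was 2.54, against 0.02, and the arrays of the 2 stages did not overlap for all 7 tested genes, against 44.7% of all genes. At an unadjusted p under 0.05 6 of the 7 passed, all but Myh7. The count was 1 without either trunk array of E9.5 (Myh3), without replicate 1 of head at E9.5 (Myl1) or without replicate 2 of head at E10.5 (Mylpf). From E9.5 to E11.5 Myh3, Myl1, Mylpf and Mybph rose in head, 4 of 7, where 4.78% of all genes were called (2.75% higher), and without replicate 1 of head at E11.5 the count was 1. No difference between head and trunk in the second-day change was called by limma for any of the 7721 tested genes. Mylpf (1.81) and Mybph (3.9) had an unadjusted p under 0.05.

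**Figure D3:**
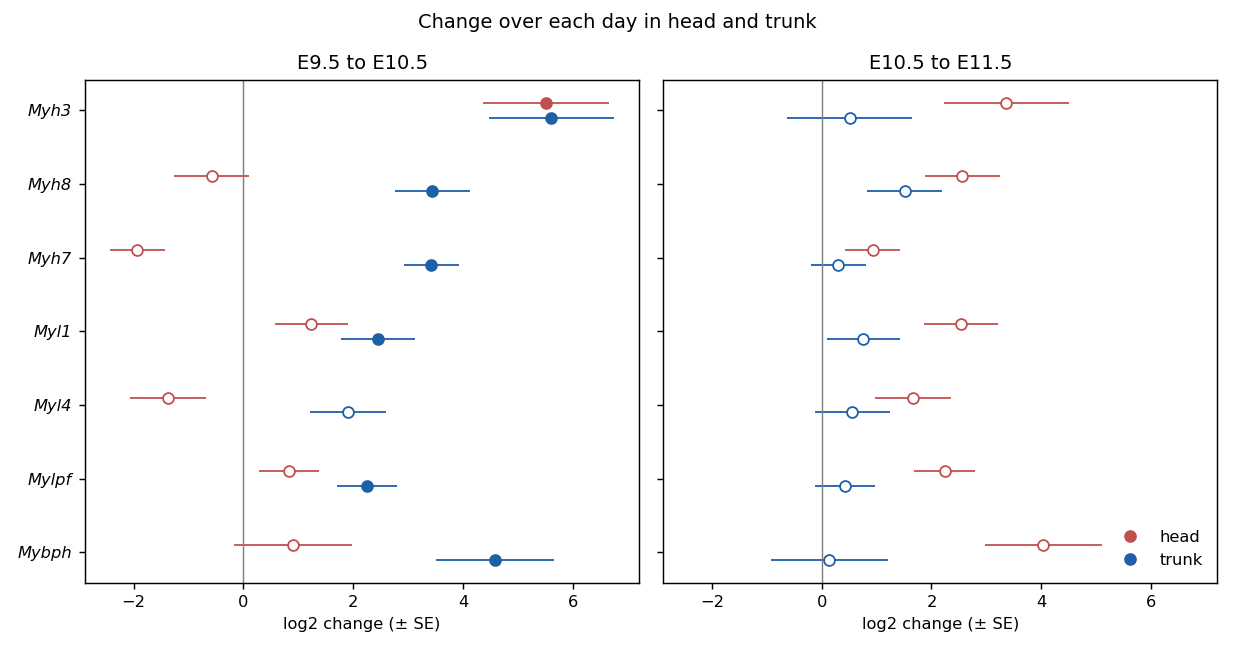
The plots give the change in log2 signal (horizontal axis) of the 7 tested genes over the first day (left) and the second day (right), in head and in trunk; points are limma estimates, bars are their SE, and filled points passed the adjusted threshold of 0.05. In trunk 6 points are filled on the first day and none on the second, and in head Myh7 lies at −1.93 on the first day while Myh3 lies at 5.51.

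Among themselves the 7 tested genes followed one another to unlike degrees. Over the 12 arrays Myl1 and Mylpf correlated with Pearson r of 0.96, Mylpf and Mybph with 0.94, Myl1 and Mybph with 0.91, and Myh3 with these 3 genes with 0.86 to 0.9. Myh7 correlated with Myh8 at 0.76 and with Myl4 at 0.75, but with Myh3 at 0.29 and Myl1 at 0.31. These values describe 12 arrays that share the same 6 groups, and no test is attached to them.

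**Figure D4:**
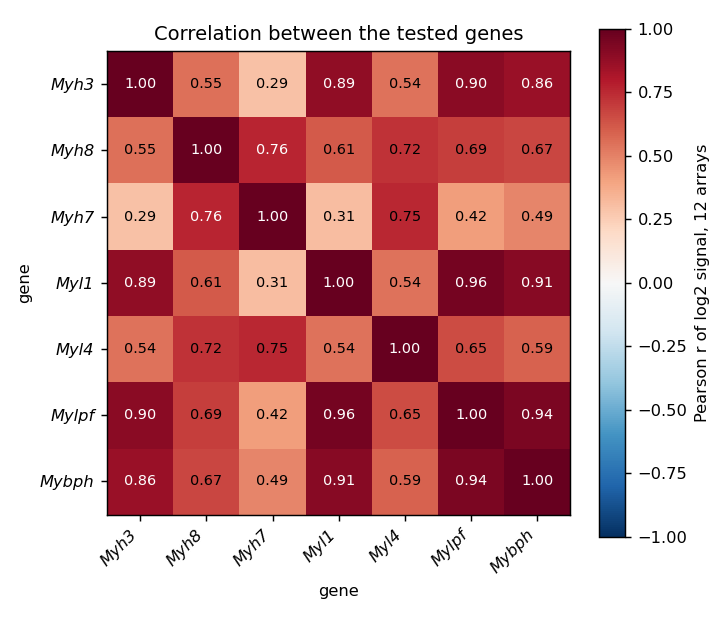
The matrix gives the Pearson r between each pair of the 7 tested genes over the log2 signals of the 12 arrays, from −1 (blue) to 1 (red), with the value printed in each square. The palest squares pair Myh7 with Myh3 (0.29) and Myl1 (0.31), and the darkest off the diagonal pairs Myl1 with Mylpf (0.96).

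The 2 arrays of a group often differed in the same direction across the genes. At E11.5 replicate 1 read higher than replicate 2 in all 7 tested genes in head (median difference 0.61 on the log2 scale) and in all 7 in trunk (0.96). Replicate 2 was the higher for 5 of 7 in head at E10.5 (−1.18) and in trunk at E9.5 (−0.66). Replicates have no order across groups, and the source of these gaps was not tested.

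The genes outside the set whose signal over the 12 arrays was most like the mean profile of the 7 tested genes were, in order, Tnnc1 (r = 0.976), Cap2 (0.962), Actn2 (0.959), Actc1 (0.956), Mpnd (0.948), Tnnt2 (0.941), Ryr1 (0.931) and Car3 (0.93). Tnnc1 encodes the slow and cardiac troponin C, Actn2 the alpha-actinin of the Z-disc, Actc1 the actin of heart and embryonic muscle, Tnnt2 cardiac troponin T and Ryr1 the calcium release channel of skeletal muscle. For single genes the nearest were Arpp21 for Myh3 (0.966), Fgf9 for Myh8 (0.954), Tec for Myh7 (0.91), Klhl22 for Myl1 (0.955) and Mylpf (0.973), Ldb3 for Myl4 (0.915) and Casq2 for Mybph (0.952). These were picked as the highest of all tested genes and are given as a description.

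Of 9 entries for other myosins of striated muscle 6 had a probe set and 2 were tested. Myh1, an adult fast heavy chain, read 30 and 24 in head at E9.5, 25 and 29 at E10.5, and 230 and 173 at E11.5. The trunk arrays read 11 and 15, then 51 and 86, then 177 and 131. It rose from E9.5 to E11.5 in head (2.9 ± 0.5, adjusted p = 0.00581, at least 1.81-fold) and in trunk (3.52 ± 0.5, adjusted p = 0.000763, at least 1.39-fold). The ventricular and slow light chain Myl3 did not pass in any of these comparisons (0.24 in head and 0.02 in trunk from E9.5 to E11.5), while Myh2, Myl2 and Myl10 were dim on every array and Myh4 on all but 1.

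The thin filament, on which myosin pulls, had 18 entries and 11 tested genes. Of these 11 genes 7 rose in head from E9.5 to E11.5 (median 1.84) and 8 in trunk (median 2.67), and none fell. The slow skeletal troponin T Tnnt1 rose by 6.38 ± 0.71 in head (adjusted p = 0.00042, at least 13.2-fold). In trunk it rose by 6.06 ± 0.71 (adjusted p = 0.000223). Of all 7721 tested genes 2.75% were called higher in head from E9.5 to E11.5 and 8.73% in trunk. Between head and trunk 1.24% were called lower in head at E9.5 and 4.68% higher. At E10.5 these shares were 2.07% and 2.45%. The same shares stand beside the lists that follow. At E10.5 head was lower in 5 of the 11 and higher in 1 (median −1.71): slow troponin I Tnni1 by −3.31 ± 0.55 (adjusted p = 0.00627), Tnnt2 by −2.66 ± 0.51 (0.0156), Actc1 by −1.92 ± 0.41 (0.0275) and Acta1, skeletal actin, by −2.17 ± 0.52 (0.0389). At E9.5, where Myh7 was higher in head, 1 of the 11 was called: the tropomyosin Tpm2, higher in head by 0.93 ± 0.19 (adjusted p = 0.0126). The E10.5 count of 6 was 0 without replicate 1 of head, replicate 1 of trunk or replicate 2 of trunk at E10.5. Without both arrays low in Xist it was 0 as well, and the count in head from E9.5 to E11.5 was 2 and not 7, while that in trunk stayed at 8.

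Of 20 entries for titin, the Z-disc and muscle filaments, 11 were tested. Of these 4 rose in head (median 1) and 6 in trunk (median 1.88) from E9.5 to E11.5, among them titin itself (Ttn), by 3.62 ± 0.46 in head (adjusted p = 0.000972) and 4.15 ± 0.46 in trunk (0.000174). At E10.5 Actn2 (−3.24 ± 0.71, adjusted p = 0.0302) and the Z-disc protein Ldb3 (−4.09 ± 0.96, 0.0359) were lower in head, and without both arrays low in Xist 0 of this list were called at E10.5. Of 26 genes of excitation, calcium handling and muscle enzymes 11 were tested; 6 rose in head and 6 in trunk from E9.5 to E11.5, and Ryr1 was lower in head at E10.5 (−4.7 ± 0.78, adjusted p = 0.0063), where 0 were called without those 2 arrays. Of 14 genes that bind, assemble or phosphorylate myosin 3 were tested, and limma called none in any of the 13 comparisons (at an unadjusted p under 0.05, Myom1 alone, over the second day in head). Of their other measured genes, Myom2, Smyd1 and Mylk2 were dim on every array.

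Of 14 genes of myoblast fusion and the cell surface 7 were tested: the adhesion molecules Ncam1 (−1.67 ± 0.18, adjusted p = 0.000188) and Cdh15 (−1.27 ± 0.3, 0.0274) were lower in head at E9.5, and both rose in head from E9.5 to E11.5 (1.7 ± 0.18 and 2.6 ± 0.3; adjusted p = 0.000375 and 0.000485).

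Upstream of the sarcomere, 10 of 15 myogenic factors and cofactors were tested. In head 4 rose from E9.5 to E11.5: Myod1 by 4.92 ± 0.30 (adjusted p = 6.91e-06, at least 20.4-fold), Myog by 5.5 ± 0.36 (8.7e-06, at least 13.1-fold), Myf5 by 1.48 ± 0.21 (0.00165, 2.8-fold) and the chromatin factor Smarcd3 by 2.09 ± 0.38 (0.00815, 4.27-fold). Over the same days Myod1 rose in trunk too, by 3.84 ± 0.3 (adjusted p = 1.34e-05, at least 9.39-fold). So did Myog, by 2.55 ± 0.36 (0.000734, 5.84-fold), while Myf5 differed in trunk by 0.03 (0.953). At E9.5 Myog (−2.37 ± 0.36, adjusted p = 0.00199) and Myf5 (−0.84 ± 0.21, 0.0308) were lower in head, and Myocd (1.9 ± 0.43, 0.022) and Mef2c (1.1 ± 0.29, 0.0485), cofactor and factor of heart and muscle genes, were higher. Myod1 read 57 and 96 in head and 70 and 74 in trunk at E9.5, all dim. At E10.5 Myf5 (0.96 ± 0.21, adjusted p = 0.0275) was higher in head, as was Myocd (1.84 ± 0.43, 0.0357), while Myog lay at −1.23 ± 0.36 relative to trunk (0.0729). Of the factors 0 were called at E10.5 and 2 at E9.5 without both arrays low in Xist. Of 10 myosins of nonmuscle and smooth muscle cells 7 were tested. From E9.5 to E11.5 limma called none of these in head (median −0.13; Myh9 and Myl12b had an unadjusted p under 0.05) and 1, the light chain Myl9, in trunk (1.6 ± 0.26, adjusted p = 0.00209), while at E9.5 Myl9 was higher in head (1.45 ± 0.26, 0.00594).

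Markers of other cells moved with region and stage beside these results, and their part in them was not tested. Summed over 5 genes, neuron markers read 3698 to 5311 in head and 295 to 401 in trunk at E9.5, and 3990 to 4162 against 2662 to 2687 at E10.5. Over 5 endothelial genes, of which Pecam1 was dim on every array, the sums were 1637 to 2402 in head and 323 to 343 in trunk at E9.5, and 2890 to 2924 against 668 to 929 at E10.5. Over 4 epithelial genes they were 3880 to 3952 against 1155 to 1582 at E9.5 and 1515 to 1920 against 532 to 749 at E10.5. The sums of all 3 sets were higher in both head arrays than in both trunk arrays at both stages. At E11.5, where no tested gene of the set was called between head and trunk, head was higher on both arrays as well. Neuron sums were then 3216 to 5186 in head and 2376 to 3138 in trunk, and endothelial sums 1102 to 1788 against 387 to 666. Erythroid markers summed over 4 genes read 21411 to 24931 in head and 13035 to 14629 in trunk at E9.5, and macrophage markers, over 4 genes, 617 to 764 against 270 to 387. The macrophage sums were 1200 to 2747 in head and 425 to 437 in trunk at E10.5, where Myl1, Mylpf and Mybph were lower in head. At E11.5, where none of these was called, they were 1297 to 1707 in head and 598 to 617 in trunk. At E11.5 the epithelial sums were 670 to 739 in head and 385 to 498 in trunk, below those of E9.5 in both, while Myh3, Myl1, Mylpf and Mybph were higher than at E9.5 in both. Of 5 smooth muscle markers Myh11, Tagln and Cnn1 were dim on every array, and Smtn on all but 1. The sum of the 5 was 2241 to 4290 in head and 1217 to 1670 in trunk at E9.5. At E11.5 it was 7369 to 8708 and 3777 to 6439. Nearly all of each sum was Acta2 alone. That gene read 4017 and 2031 in head and 1110 and 1478 in trunk at E9.5. At E11.5 its signals were 8576 and 7200 in head and 3611 and 6300 in trunk. The 9 measured markers of muscle progenitors summed to 1149 to 1262 in head and 2629 to 3230 in trunk at E9.5. The sums were 3122 to 3562 and 3049 to 3661 at E10.5, and 6511 to 6735 and 4262 to 4541 at E11.5. These markers did not move together. Limma called Pax3 lower in head at E9.5 (−2.3 ± 0.33, adjusted p = 0.00153). At E10.5 Pax3 read 335 and 255 in head against 602 and 899 in trunk, and Myf5 2294 and 2120 against 1117 and 1150. At E11.5 Pax3 read 306 and 376 in head against 512 and 639 in trunk. Most of the head sums of E11.5 came from Myod1 (2156 and 2337), Myf5 (1787 and 1772) and Myog (1581 and 1318). In sorted samples of many cells, fewer muscle cells and less RNA of a gene per cell cannot be told apart.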

How the data were processed

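Sorted cells of 12 samples were measured on Affymetrix expression arrays. The deposited values are probe-set signals, an intensity on a linear scale; MAS5 and Affymetrix Expression Console are named per the submitters' processing notes, and a normalization after that step is not stated there. From the deposited intensity the log2 was taken, with no offset and no further normalization. Of 22690 probe sets 64 were controls, 20380 named 1 gene, 691 several and 1555 none; 20351 of the 20380 were matched by Entrez number to RefSeq names, 29 were not, and no symbol changed. Probe sets above their array's median on at least 2 of 12 arrays were kept (11738), and the one with the highest mean stood for its gene (7721 genes). Limma 3.58.1 in R 4.3.3 fitted the 6 group means, with a prior variance that followed intensity (residual degrees of freedom 6, prior 5.87). The 13 comparisons were two-sided, with Benjamini-Hochberg adjustment over all 7721 genes and a threshold of 0.05. The fit was tested on simulated data. Tables and plots used Python 3.11.15, numpy 2.4.6, pandas 2.3.3 and matplotlib 3.10.9.

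For "at least" folds, dim arrays were raised to their array's median; no fold is given where both sides were dim. The arrays limit the precision by their number, 2 per group. The genes named are the 9 genes, up to 4 genes of smallest p per list and comparison, the 8 genes most like the mean profile and the nearest gene to each tested gene, and the checks Myf5, Myod1, Myog and Xist; genes named as dim, the markers Nkx2-5 and Myl3, and Myl9, Ncam1 and Cdh15 where outside that rule, were named after their values were seen. The members and lists were chosen with earlier results of these data known. The 24 alternatives changed the normalization, offset, filter, choice of probe set, trend, replicate block and arrays, 12 of them leaving out 1 array each.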

Additional observations from a re-analysis of the deposited data

Results flagged for a closer look

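The change of Myh7 with time differed between head and trunk by a test of the difference itself. From E9.5 to E10.5 the change in head minus that in trunk was −5.36 ± 0.70 on the log2 scale (limma, adjusted p = 0.00645), with head going from 646 and 274 to 159 and 76 and trunk from 36 and 41 to 479 and 351. From E9.5 to E11.5 it was −4.73 ± 0.70 (adjusted p = 0.00558), with head at 241 and 182 and trunk at 816 and 314 on the last day. The 2 values share the arrays of E9.5. The first-day call ended without replicate 1 of trunk at E10.5 (−5.13). It also ended without both arrays low in Xist and with signals raised to the array median. The call over both days held in all 24 alternatives. Both trunk arrays of E9.5 and replicate 2 of head at E10.5 were dim, so these log2 values are not measured sizes.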

How the results depend on the processing

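Of 29 calls on the 7 tested genes 6 held in all 24 alternatives and 0 reversed: Myh7 between head and trunk at E9.5, in trunk over the first day and over both days, and in its difference in change over both days, and Myh3 over both days in head and in trunk. Of 62 values without a call 11 gained one under some alternative and 26 changed sign. Without both E10.5 arrays low in Xist the number called was 0 for the mean of the stages (4 with them), 0 at E10.5 (3), 0 over the first day in head (1), 1 over the first day in trunk (6) and 0 for the difference in first-day change (1). Raising signals to the array median, an alternative chosen after seeing the data, left 2 for the mean of the stages, 1 at E9.5, 1 at E10.5, 0 over the first day in head, 1 over the second and 1 over both, 2 and 4 over the first and both days in trunk, and 0 for the difference in first-day change. With 50 added before the log the count was 1 at E9.5, 0 over the first day in head and 2 over the second. The stricter filter gave 1 at E9.5. Without the intensity trend 1 was called at E10.5, and 0 over the first day in head, as was the case with no filter, with every probe set as a feature and with the mean of a gene's probe sets. With no filter Myl1 was lost at E10.5 (adjusted p = 0.0524) and over the first day in trunk (0.0603). In the fit of every unfiltered probe set, from which Myh6 and Myl7 are given, 7 of the 29 calls were lost: Myh8 at E9.5 (0.0541), Myl1 (0.0709) and Mylpf (0.0636) at E10.5, Myh3 over the first day in head (0.0781), Myl1 (0.0809) and Mylpf (0.0578) over the first day in trunk, and Myl4 over both days in trunk (0.063). There more features were tested; the cause of the other changes was not tested.

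Leaving out 1 array at a time, the counts ranged from 1 to 4 for the mean of the stages, 1 to 3 at E9.5, 0 to 4 at E10.5 and 0 to 0 at E11.5. In head they ranged from 0 to 1 over the first and second day and 1 to 4 over both, and in trunk from 1 to 6, 0 to 0 and 3 to 7. For the differences in change they were 0 to 2, 0 to 0 and 1 to 2. Calls over all genes moved as well: over the first day 74 in head (0 to 135 over all alternatives) and 556 in trunk (94 to 578), over the second day 76 in head (4 to 165) and 2 in trunk (0 to 13), and over both days 369 (173 to 448) and 1038 (434 to 1078). Between head and trunk they were 808 for the mean of the stages (446 to 911), 457 at E9.5 (238 to 455), 349 at E10.5 (34 to 482) and 160 at E11.5 (56 to 187), and for the differences in change 30 (0 to 89), 0 (0 to 17) and 114 (57 to 148).

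The labels do not tie same-numbered samples together, and the arrays gave no general sign of it: deviations of same-numbered arrays correlated at −0.379 to 0.259 over 15 pairs of groups, 3 of them above 0.1 (0.078 between the E10.5 groups, whose number 1 arrays share a low Xist). With the replicate block 4 genes were called at E10.5, with Myh7 gained (adjusted p = 0.0174), 1 over the first day in head, with Myh3 lost (0.0539) and Myh7 gained (0.0334), and 5 over the first day in trunk, with Myl1 lost (0.0515). Signals below the array median carry little information on size, which limits Myh6, Myl7, Myh8 and the E9.5 values of most genes.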
